A study of Mus musculus with 30 samples.

Results

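The genes described are 53 protein-coding genes of the primary cilium, chosen by symbol. They encode subunits of the intraflagellar transport (IFT) particles and their motors, the BBSome with its chaperonins, the ciliary small GTPases and the transition zone. The symbol rule matched 53 protein-coding genes of 45594 genes in the gene table, of which 22175 were protein coding, and used no measured value. By role they were 11 IFT-B subunits, 5 IFT-A subunits, 6 motor subunits, 7 BBSome subunits, 2 BBS chaperonins, 3 small GTPases, 13 genes of the Meckel syndrome (MKS) module of the transition zone, 4 of its nephronophthisis (NPHP) module and 2 of its RPGR module.

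RNA was sequenced from mouse retinal organoids, which are aggregates of induced pluripotent stem cells (iPSCs) that form neural retina in culture, on 10 days of differentiation with 3 libraries a day. All groups came from 1 iPSC clone, called wild type, that carries the Nrl-GFP transgene, in which the promoter of the rod factor Nrl drives green fluorescent protein. The clone was made from embryonic mouse fibroblasts with doxycycline-inducible lentiviral Oct3/4, Sox2, Klf4 and c-Myc. D0 was the iPSCs, which were kept on feeder cells, D4 was whole aggregates pooled from 36 organoids, and from D7 on each library was neural retina dissected from a pool of 30 organoids (D7), 20 organoids (D10) or 12 organoids (D12, D15, D18, D22, D25 and D32). Cultures were kept in 5% oxygen up to D10 and in 20% oxygen after it. Taurine, 9-cis retinal and insulin-like growth factor 1 were added from D10, and B27 and fetal bovine serum from D26, so these changes of culture cannot be told apart from the days they go with.

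A primary cilium is built by trains of IFT particles that move along its microtubules. Kinesin-2 motors carry IFT-B trains outward to the tip, and IFT-A with the dynein-2 motor returns them. The BBSome is a coat complex that rides on these trains and removes or delivers membrane proteins, and the GTPase ARL6 recruits it to membranes. The transition zone is the gate at the base, built of the MKS and NPHP modules, where CEP290 links the membrane to the axoneme. In photoreceptors the cilium is enlarged into the outer segment that holds the visual pigment, its transition zone is the connecting cilium, and defects in many of these genes cause retinal degeneration with or without disease of other organs.

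Libraries held 16773624 to 24526704 estimated counts, with a median of 19226180. Levels are CPM, counts scaled to a library of 1000000 counts after correction by TMM factors, which ranged from 0.524 (D4 replicate 2) to 1.162. The libraries fell into a pair of sets by the share of Rpl3 counts that were assigned to Rpl3 pseudogenes, a share that was 12 to 31.8% in 12 libraries (set 1, with all of D0 and D7 and the second replicate of each day between D10 and D25) and 70.9 to 86.5% in 18 libraries (set 2, with the rest). Within D10 to D25, 4 of 53 ciliary genes differed between the sets (edgeR, adjusted p under 0.05), against 4.71% of all genes tested. The 4 were Rpgrip1, Cep290 and Bbs7, which were higher in set 1 by 0.58 ± 0.16, 0.50 ± 0.12 and 0.39 ± 0.09 (log2, SE), and Ift46, whose difference was -0.25 ± 0.07. Marker genes mostly went with the labels. The summed level of 6 pluripotency genes was 4468 to 4938 CPM at D0 and 43.1 to 61.9 CPM at D7. That of 7 neural retina genes was 712 to 879.7 CPM at D7 against 176 to 217 CPM at D0. Of these 7 genes, 6 were higher and 1 lower at D7.

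All 53 genes passed the low-count filter and all 53 differed between days in a single F test over the 10 days (edgeR quasi-likelihood, Benjamini-Hochberg adjusted p under 0.05), as did 91.4% of all 19897 genes tested. Many had their highest level late: 28 of the 53 (52.83%) had their highest mean at D32, against 21.36% of all tested genes. The highest mean was at D0 for 3 (5.66%), against 22.99%. Those 28 included all 7 BBSome subunits, both BBS chaperonins and all 3 small GTPases, but 3 of 11 IFT-B subunits (Ift172, Ift20 and Ift88). The day of the highest mean depended on the scale, which was varied after the data had been seen. With libraries scaled by their totals alone, 35 of the 53 (66.04%) had it at D32, against 26.88% of all tested genes, and by TPM, a level per transcript length, 40 did (75.47%), against 32.96%. The BBSome, the chaperonins and the small GTPases had it at D32 in all members on each of the 3 scales, whereas for IFT-B the count was 6 of 11 by totals and 7 of 11 by TPM. The heat map shows levels on the TMM scale.

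**Figure D1:**
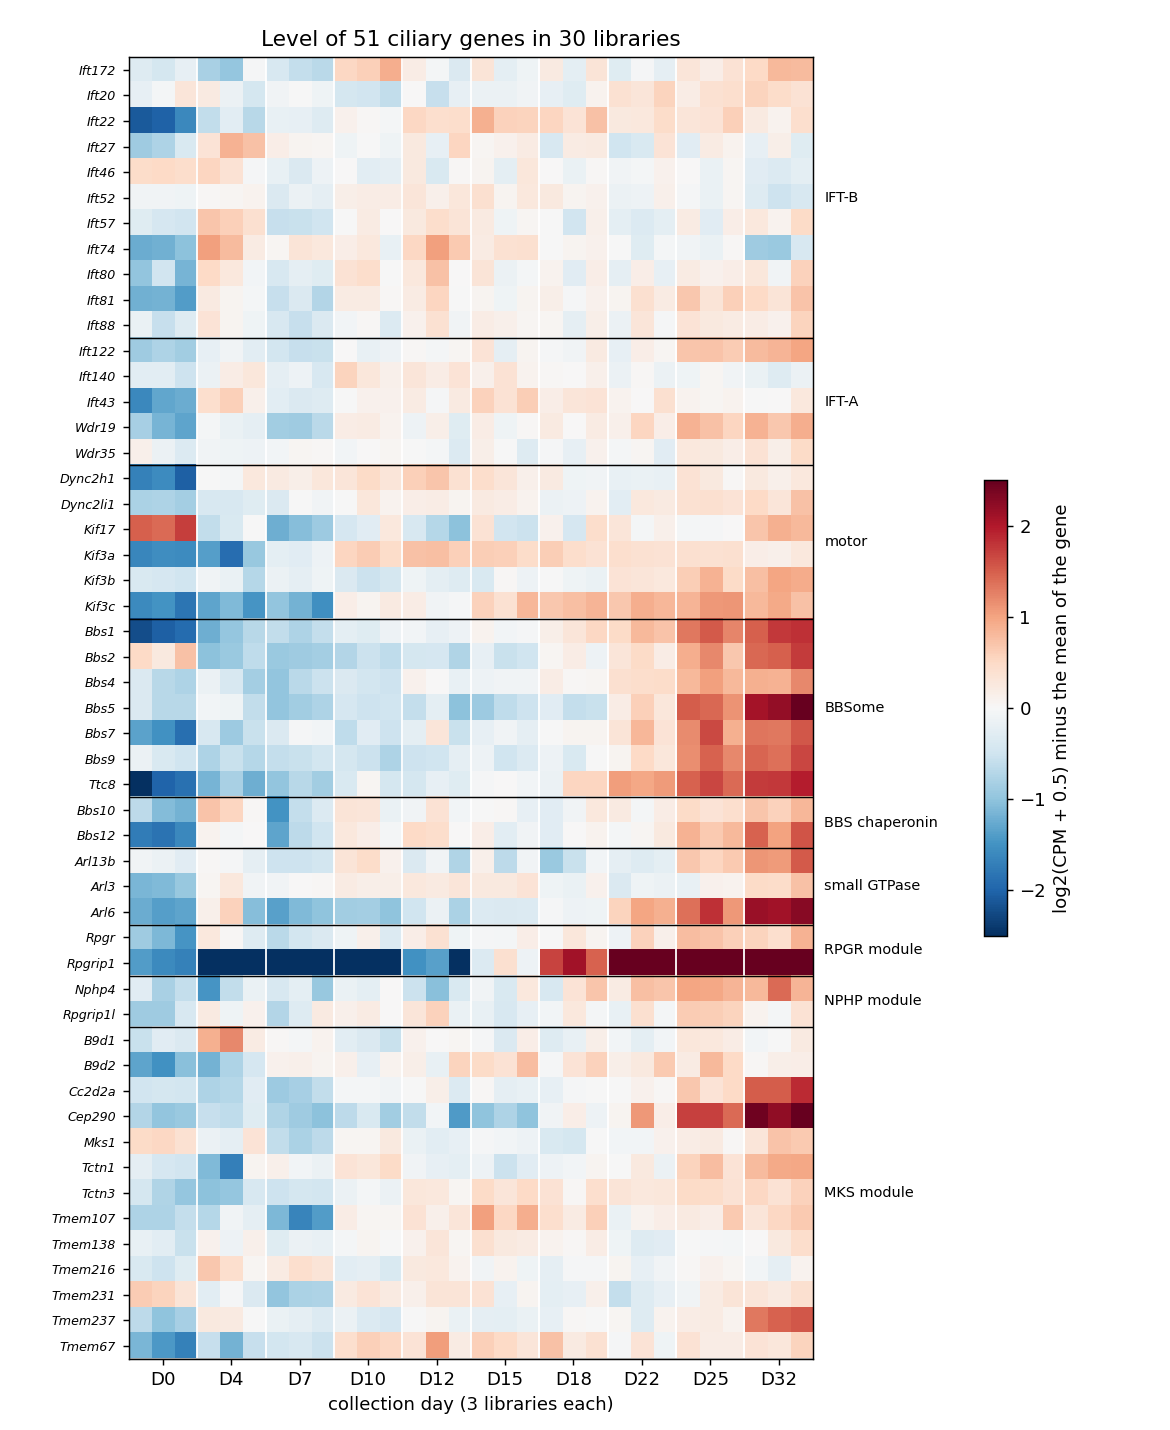
Each row is 1 of 51 of the 53 genes, grouped by role, and each column is 1 of the 30 libraries in order of day. Colour is the log2(CPM + 0.5) of the library minus the mean of that gene over all libraries, and values beyond 2.5 in either direction take the end colour, as most Rpgrip1 libraries do. The BBSome rows turn red at D25 and D32, while the IFT-B rows have no such common late change on this scale.

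Per unit of length, as TPM (transcript levels divided by length and scaled to a sum of 1000000), the highest of the 53 at D32 was Rpgrip1 with 756 ± 143 TPM (SD, n = 3), followed by Arl6 with 346 ± 14.8 TPM and Arl3 with 278 ± 23.3 TPM. At D0 the highest was Ift46 with 162 ± 7 TPM, when Rpgrip1 stood at 5.45 ± 0.731 TPM. Averaged over the 10 days, the highest member was Ift46 (IFT-B), Ift43 (IFT-A), Kif3a (motors), Ttc8 (BBSome), Bbs12 (chaperonins), Arl3 (small GTPases), Tmem237 (MKS module) and Rpgrip1 (RPGR module).

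Day was compared in 5 steps from 1 fit over all 30 libraries: from iPSC to early neural retina (D7 against D0), through the onset of photoreceptor genes (D18 against D7), through their maturation (D32 against D18), and in the parts of that last step (D25 against D18 and D32 against D25). These steps share libraries, so they are not independent of each other. From D0 to D7, 24 of 53 genes were higher and 7 lower, against 28.8% higher and 29.6% lower of all genes tested, with a median log2 difference of 0.29 against 0 over all genes. Between D7 and D18, 32 were higher and 1 lower (Tmem216), against 26.8% and 22.23% of all genes, with a median of 0.45 against 0.05. For D32 against D18, 31 were higher and 3 lower (Ift74 and Ift52 among them), against 20.6% and 23.7%, with a median of 0.52 against -0.01. In the first part of that step, D25 against D18, 21 were higher and 0 lower, against 11.7% and 12.19%, with a median of 0.27 against -0.01. In the last, D32 against D25, 12 were higher and 3 lower (again with Ift74 and Ift52), against 9.31% and 13.8%, with a median of 0.14 against -0.02. Within set 1, which leaves 1 library at D18, fewer of the 53 were called for D18 against D7. The count for D32 against D25 was 8 when only set 2, all but D25 replicate 3, or all but D32 replicate 3 entered the fit. The shares of all genes called in these fits were not computed, so their counts cannot be set against the shares above.

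**Figure D2:**
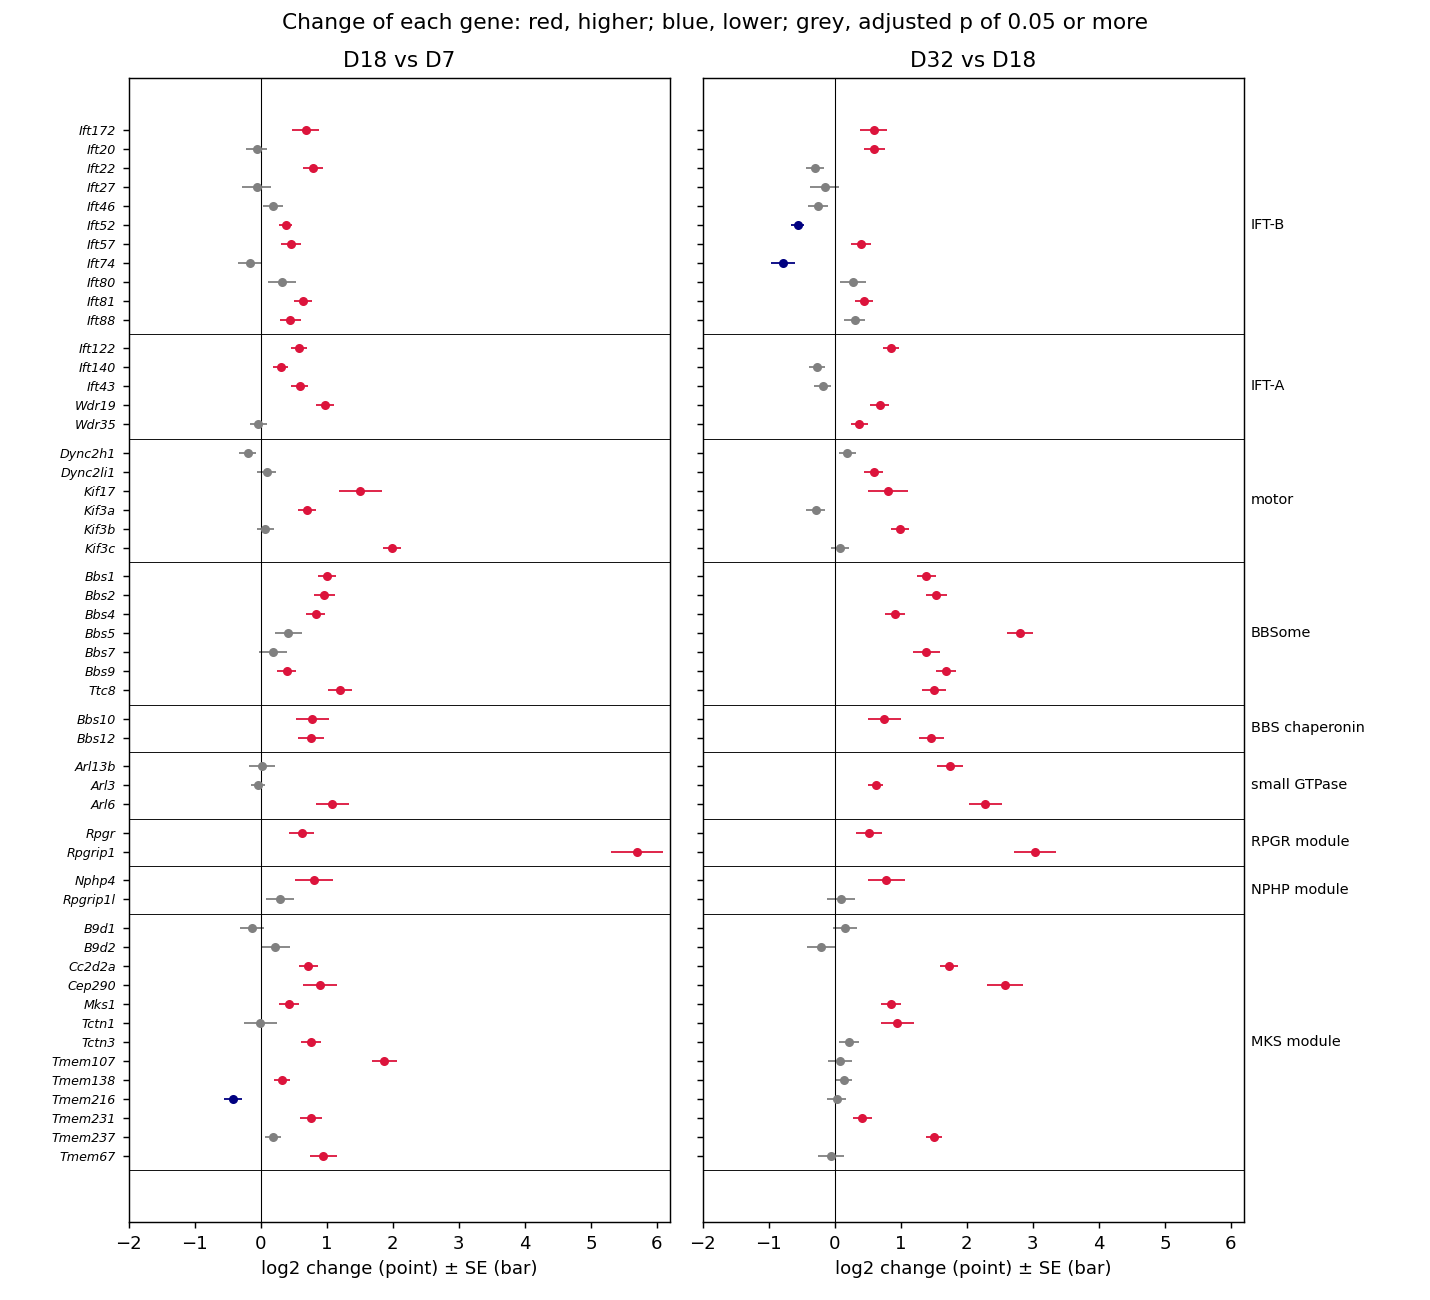
Points are the log2 difference of each of 51 of the 53 genes for D18 against D7 (left) and D32 against D18 (right), and bars are 1 SE of the fit over 30 libraries. Red and blue mark genes higher and lower at an adjusted p under 0.05, and grey the rest. All 7 BBSome genes are red in the right panel, with differences from 0.91 to 2.81.

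Markers of cell types moved over the same steps. The summed level of 12 photoreceptor genes was 14.9 to 23.9 CPM at D7, 569 to 946 CPM at D18, 5115 to 8234 CPM at D25 and 8592 to 10960 CPM at D32. Of the 12, 10 were higher and 0 lower for D18 against D7, and 10 were higher and 1 lower for D32 against D18. Nr2e3 was at 0 in all D7 libraries. The 6 proliferation genes summed to 1520 to 1703 CPM at D18 and 117 to 139 CPM at D32, and all 6 were lower. Fibroblast genes, which mark feeder cells, summed to 497 to 1323 CPM at D0 and 72.9 to 86.2 CPM at D7, with 7 of 8 lower and none at 0. For 18 genes of motile cilia the sums were 47.9 to 53 CPM at D7, 125.2 to 160.9 CPM at D18 and 115.9 to 159.1 CPM at D32. Of these, 10 were higher and 2 lower for D18 against D7, none was at 0 on those days, and Foxj1, their main activator, had means of 4.48 CPM at D7 and 4.02 CPM at D18 and did not pass the test. Pigment epithelium genes summed to 718 to 895 CPM at D7, 71.1 to 158.6 CPM at D18 and 10.24 to 418.9 CPM at D32. The part of these cell types in the ciliary gene results was not tested. In bulk RNA, a change in the number of cells of a type and in the RNA per cell cannot be told apart.

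Several of these genes carry short exons that can be skipped, and photoreceptors are known for including short exons in ciliary genes that other cells leave out. The transcript table was therefore searched for internal exons of at most 51 bases that some protein-coding transcripts of a gene contain and others skip, among transcripts whose length matched the GENCODE M21 annotation (GRCm38). The share of an exon is the summed level per length of the transcripts that contain it, as a percentage of those plus the ones that skip it, in genes with at least 20 such counts in each D10 and D25 library. This measure was added after the data had been seen and has no test. Of 11 such exons in 9 of the 53 genes, 6 rose by at least 20 percentage points from D10 to D25 and 0 fell by as much, against 13.7% of all 1286 short exons that rose and 32 that fell. The median change was 20.9 points for the 11 and 1.42 points for all. Both Cc2d2a exons among the 6 come from the same transcript and have a single share. That share enters the counts of 6 and 11 as separate exons. Its change of 20.9 points is itself the median of the 11. All 6 lie in coding sequence, and of the rest the nearest was a 21-base exon of Dync2h1 with a rise of 8.29 points. The 6 exons are shown with 30 bases of the neighbouring exons on each side, since a reader can see from them how little sequence is added. The exon is in capitals, from the GENCODE transcripts.
Ttc8 exon of 30 bases, chr12:98937120-98937149, plus strand: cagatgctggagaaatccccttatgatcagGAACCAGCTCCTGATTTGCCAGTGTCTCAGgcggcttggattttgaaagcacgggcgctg
Bbs9 exon of 15 bases, chr9:22648020-22648034, plus strand: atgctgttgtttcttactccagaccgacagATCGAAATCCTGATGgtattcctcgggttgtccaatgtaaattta
Arl6 exon of 13 bases, chr16:59618666-59618678, minus strand: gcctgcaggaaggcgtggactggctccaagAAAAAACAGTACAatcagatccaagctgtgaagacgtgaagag
Wdr35 exon of 33 bases, chr12:8995640-8995672, plus strand: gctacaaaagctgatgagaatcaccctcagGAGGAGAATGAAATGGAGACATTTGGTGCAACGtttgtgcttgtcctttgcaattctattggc
Cc2d2a exon of 15 bases, chr5:43716937-43716951, plus strand: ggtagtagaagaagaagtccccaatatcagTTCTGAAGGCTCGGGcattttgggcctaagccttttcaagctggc
Cc2d2a exon of 21 bases, chr5:43728271-43728291, plus strand: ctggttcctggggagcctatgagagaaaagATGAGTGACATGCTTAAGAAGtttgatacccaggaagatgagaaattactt
The Ttc8, Bbs9, Wdr35 and Cc2d2a exons have lengths that are multiples of 3, and the Arl6 exon does not.

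**Figure D3:**
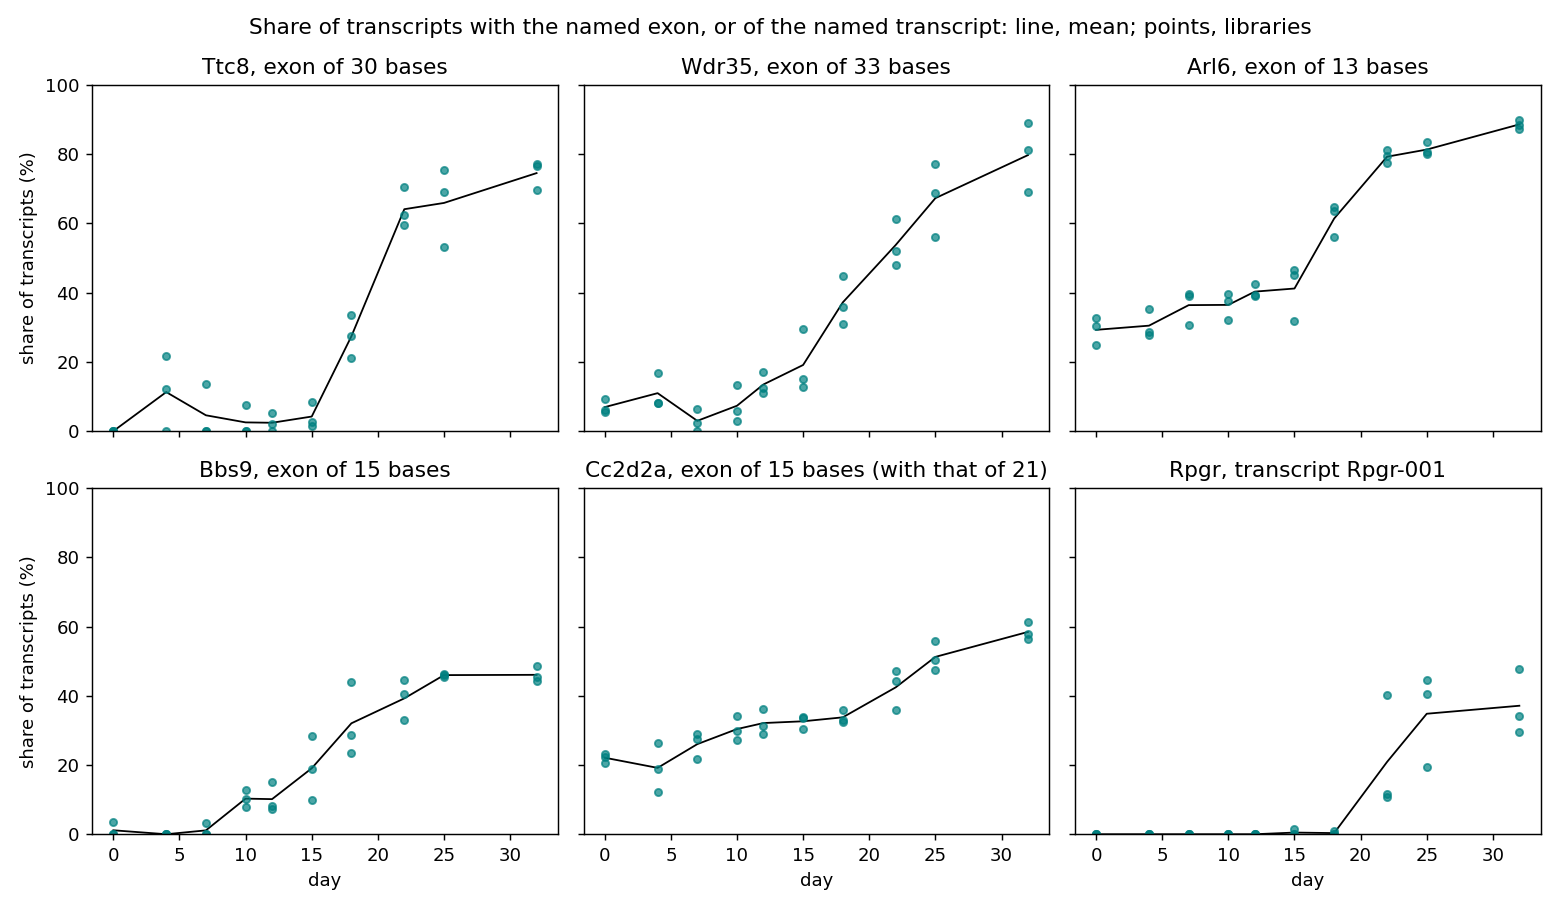
The panels for Ttc8, Wdr35, Arl6, Bbs9 and Cc2d2a show, by day, the share (%) of the named short exon. It is taken among the protein-coding transcripts that contain or skip that exon. The last panel shows the share of Rpgr transcripts that are Rpgr-001. Each panel has 3 libraries a day as points and their mean as a line. Ttc8 stays at or below 21.6% up to D15 and lies between 53.1 and 77.2% from D25, while the Arl6 exon starts near 30% and reaches 87.4 to 89.9% at D32.

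All 7 BBSome subunits were higher at D32 than at D18, against 20.6% of all genes tested. All 7 were already higher at D25 than at D18, against 11.7%, and the median log2 differences were 1.50 and 1.19. Bbs5, a subunit with lipid-binding domains, had the largest of these. Its 3 libraries read 6.99, 7.6 and 8.14 CPM at D7, 11.6, 9.26 and 9.58 CPM at D18, 41.4, 39.6 and 31.4 CPM at D25 and 62.2, 67.4 and 83.8 CPM at D32. It did not overlap between D18, D25 and D32, with a 7.01-fold difference for D32 against D18 (log2 2.81 ± 0.20, edgeR adjusted p = 2e-11) and a log2 difference of 0.93 ± 0.19, edgeR adjusted p = 0.00064 for D32 against D25. Ttc8, also called BBS8, began earlier. It read 5.8, 8.76 and 9.71 CPM at D0, 18.4, 22.4 and 19.9 CPM at D7, 33, 53.2 and 53.1 CPM at D18 and 124, 125 and 144 CPM at D32, and the ranges of these 4 days did not overlap. Its log2 differences were 1.32 ± 0.18, edgeR adjusted p = 9.7e-07 for D7 against D0, 1.20 ± 0.18, edgeR adjusted p = 3.9e-06 for D18 against D7 and 1.19 ± 0.17, edgeR adjusted p = 1.3e-05 for D25 against D18.

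Bbs1, a subunit often mutated in Bardet-Biedl syndrome, rose over the same steps as Ttc8, with means of 8.02 CPM at D0, 22 CPM at D7, 44 CPM at D18 and 115 CPM at D32. Its difference for D7 against D0 was 2.74-fold (log2 1.46 ± 0.14, edgeR adjusted p = 3.6e-09). Bbs7 rose in separate steps, by a log2 of 1.47 ± 0.21, edgeR adjusted p = 2e-06 for D7 against D0 and of 1.25 ± 0.21, edgeR adjusted p = 5.6e-05 for D25 against D18. Between D7 and D18 its difference was 0.19 ± 0.21, edgeR adjusted p = 0.47. From D0 to D7, 3 BBSome subunits rose and 3 did not pass the test, against 28.8% higher and 29.6% lower of all genes tested. Bbs2 was the 1 that fell. Its libraries read 42.5, 35.7 and 49.8 CPM at D0 and 15.4, 15.9 and 16.3 CPM at D7, a fall of 1.43 ± 0.16 (log2, edgeR adjusted p = 2.8e-08). It then rose to 81.2, 84.8 and 102 CPM at D32, by 1.54 ± 0.16, edgeR adjusted p = 1.2e-08 against D18. Bbs9, a scaffold subunit, rose by 1.68 ± 0.15, edgeR adjusted p = 1e-09 in the same step, from 26.4, 22.16 and 28.8 CPM to 79.9, 75.8 and 92.7 CPM. Bbs4, which binds the centriolar satellite protein PCM1, had the smallest log2 difference of the 7, 0.91 ± 0.15, edgeR adjusted p = 2.1e-05.

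The 30-base Ttc8 exon printed above, known as an exon of the retinal form of the protein, went with the late days. Its share was 0.0305, 7.51 and 0% in the D10 libraries, 27.5, 21.1 and 33.5% at D18, 75.4, 69.1 and 53.1% at D25 and 76.7, 69.7 and 77.2% at D32. No D10 library overlapped one of D18 or later. The 15-base Bbs9 exon read 7.92, 12.7 and 10.25% at D10, 23.3, 28.8 and 44% at D18 and 46.1, 46.4 and 45.4% at D25, again with no overlap between D10 and D25.

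**Figure D4:**
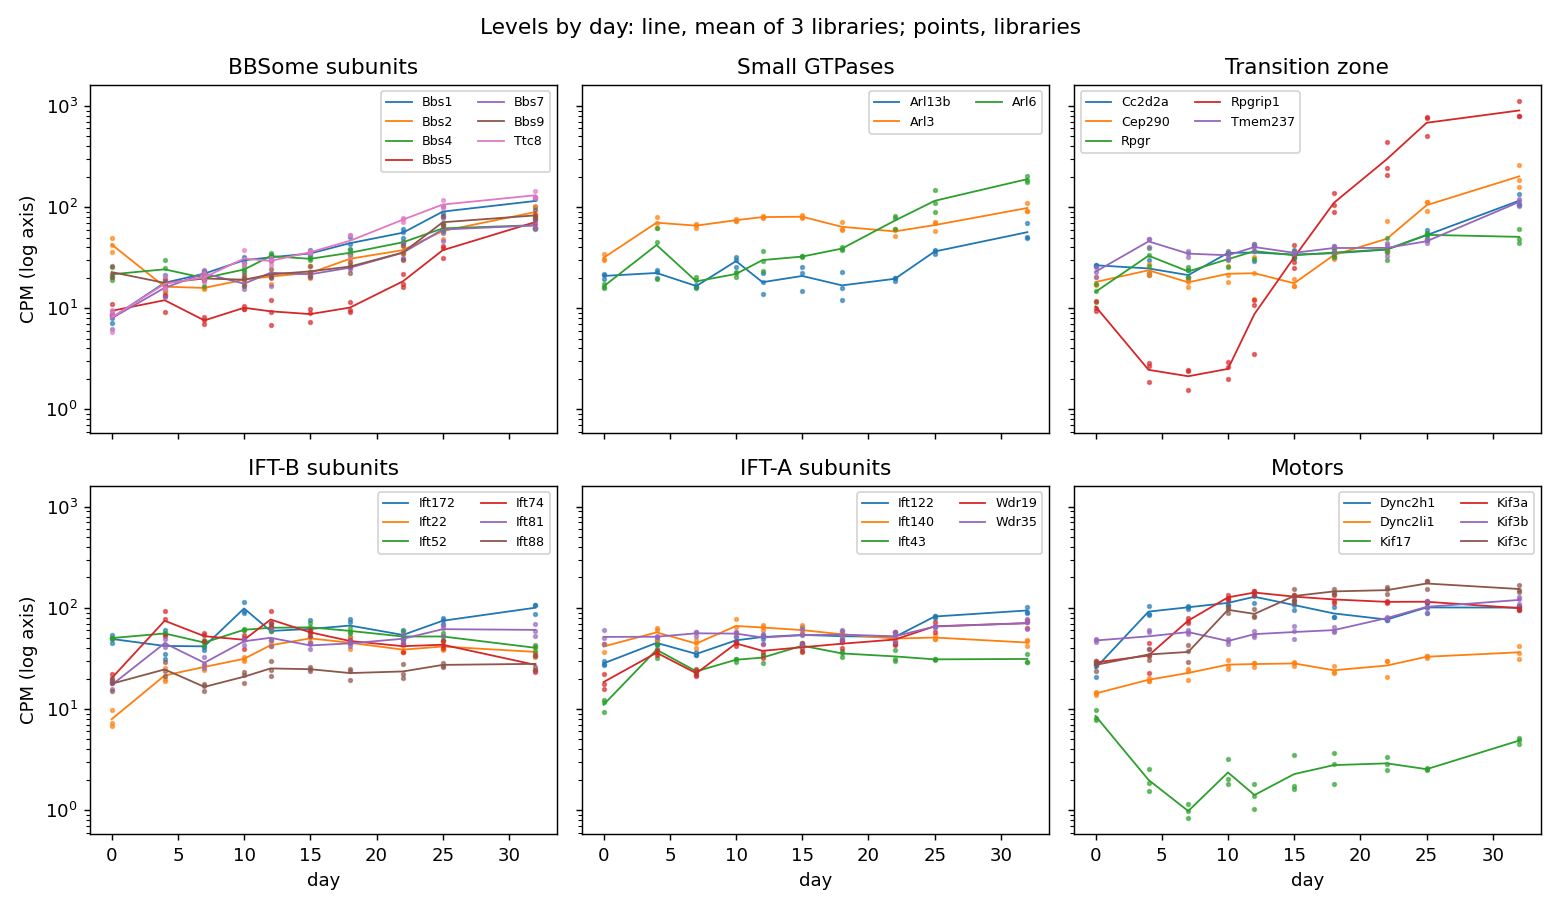
Levels in CPM on a log axis by day for 7 BBSome subunits, 3 small GTPases, 5 transition zone genes, 6 of 11 IFT-B subunits, 5 IFT-A subunits and 6 motor subunits, with the mean of 3 libraries as a line and libraries as points. The BBSome lines climb together after D18, Rpgrip1 spans more than any other line, from 2.12 CPM at D7 to 903 CPM at D32, and Ift74 ends below its D18 level.

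BBS10 and BBS12 are chaperonin-like proteins that help to assemble the BBSome. Both genes were higher at D18 than at D7 and at D32 than at D18, against 26.8% and 20.6% of all genes tested. Bbs12 had the larger differences, 1.05 ± 0.21, edgeR adjusted p = 0.00012 for D7 against D0 and 1.46 ± 0.19, edgeR adjusted p = 9.4e-07 for D32 against D18, with libraries at 10.5, 12.8 and 13.8 CPM on D18 and 36.5, 26.3 and 39.1 CPM on D32. Bbs10 went from 8.21 ± 1.74 CPM (SD, n = 3) to 13.8 ± 1.27 CPM, a log2 difference of 0.75 ± 0.25, edgeR adjusted p = 0.015.

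The 3 small GTPases were all higher at D32 than at D18, with a median log2 difference of 1.75, and all 3 were also higher at D32 than at D25. Of all genes tested, 20.6% and 9.31% were higher in these steps. Arl6 (also BBS3), which recruits the BBSome to membranes, read 15.8, 19.1 and 20.4 CPM at D7, 40.6, 37.9 and 38.3 CPM at D18, 61, 82.4 and 77.6 CPM at D22, 109, 149 and 88.7 CPM at D25 and 187, 178 and 203 CPM at D32. Each of these days lay above the one before without overlap. The difference was 2.11-fold for D18 against D7 (log2 1.08 ± 0.25, edgeR adjusted p = 8e-04) and 4.86-fold for D32 against D18 (log2 2.28 ± 0.25, edgeR adjusted p = 4.7e-08). Arl13b, a GTPase of the ciliary membrane that activates ARL3, had means of 16.6 CPM at D7 and 16.82 CPM at D18, with a higher mean of 29.2 CPM at D10 between them. From D18 to D32 it rose to 51, 49.6 and 68.9 CPM, 3.36-fold (log2 1.75 ± 0.20, edgeR adjusted p = 1e-07). Arl3, which releases lipidated cargo inside the cilium, read 29.7, 30.6 and 34.3 CPM at D0 and 62.4, 66.4 and 68 CPM at D7, a log2 difference of 1.06 ± 0.11, edgeR adjusted p = 1.3e-08. It changed late again, by 0.62 ± 0.11, edgeR adjusted p = 5.1e-05 for D32 against D18.

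The 13-base Arl6 exon, whose inclusion gives the longer form of ARL6 known from the retina, was present before the retina formed. Its share was 24.8, 30.3 and 32.7% at D0, 37.7, 32 and 39.6% at D10, 31.8, 45.2 and 46.6% at D15, 64.8, 63.5 and 56% at D18, 80.6, 83.4 and 80% at D25 and 88.5, 89.9 and 87.4% at D32. The step from D15 to D18 had no overlap between libraries.

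Among the 11 IFT-B subunits the changes were smaller and went both ways. From D18 to D32, 4 were higher (Ift172, Ift20, Ift57 and Ift81), 2 were lower and 5 did not pass the test, with a median log2 difference of 0.28. Of all genes tested, 20.6% were higher and 23.7% lower in that step. Ift74, a core subunit that binds tubulin together with IFT81, was the most marked of the lower ones. Its libraries read 18.8, 19.5 and 22.08 CPM at D0, 46.7, 56.4 and 54.3 CPM at D7, 45.1, 47.4 and 48.6 CPM at D18, 42.6, 40.5 and 46.5 CPM at D25 and 24.3, 23.5 and 34.1 CPM at D32. It was lowest in the D0 libraries and in D32 replicates 1 and 2, and D32 lay wholly below D25. The gene rose by 1.38 ± 0.18, edgeR adjusted p = 3.8e-07 (log2) for D7 against D0 and fell by 0.78 ± 0.18 for D32 against D18 (edgeR adjusted p = 0.00074). For D32 against D25 it fell by 0.66 ± 0.18 (edgeR adjusted p = 0.0076), and without D32 replicate 2 that adjusted p was 0.054. Its partner Ift81 went the other way, from 46.8, 41.5 and 45.3 CPM to 59.7, 52.9 and 69.2 CPM, a log2 difference of 0.44 ± 0.14, edgeR adjusted p = 0.012.

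Ift52, another core subunit, read 63.6, 56.3 and 57.8 CPM at D18 and 42.7, 37.5 and 40.8 CPM at D32 and fell by 0.56 ± 0.10 (log2, edgeR adjusted p = 8.8e-05). For D32 against D25 it fell by 0.37 ± 0.10 (edgeR adjusted p = 0.01), a call that was lost at an adjusted p of 0.23 when libraries were scaled by their totals alone. Ift22, a small GTPase-like subunit, had the largest early difference, 3.29-fold for D7 against D0 (log2 1.72 ± 0.15, edgeR adjusted p = 6.9e-10), from 6.79, 7.203 and 9.77 CPM to 27, 26.8 and 24.4 CPM. It was also higher at D18 than at D7, by 0.79 ± 0.15, edgeR adjusted p = 7e-05. Ift46 was the 1 IFT-B subunit lower at D7 than at D0, where it read 98.9, 102 and 98.2 CPM and then 63.1, 55.6 and 65.3 CPM, a fall of 0.70 ± 0.15 on the log2 scale (edgeR adjusted p = 0.00022). Ift172, the largest IFT-B protein, read 87.2, 108 and 106 CPM at D32 and 71.9, 51.7 and 76.9 CPM at D18, a log2 difference of 0.59 ± 0.20, edgeR adjusted p = 0.018.

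Of the 5 IFT-A subunits, 4 were higher at D18 than at D7 and 3 higher at D32 than at D18, against 26.8% and 20.6% of all genes tested. None was lower in any of the 5 steps, in which 12.19 to 29.6% of all genes were lower, so with 5 genes this says little by itself. Ift43 had the largest early difference, 1.10 ± 0.14, edgeR adjusted p = 1.9e-07 for D7 against D0, from 9.28, 11.6 and 12.19 CPM to 24.4, 22.8 and 23.5 CPM. Wdr19 (IFT144) rose by 0.97 ± 0.14, edgeR adjusted p = 4e-06 for D18 against D7, from 21.7, 21.2 and 24.8 CPM to 46.8, 39.8 and 46.1 CPM with no overlap. Ift122 had the largest late difference, from 50, 47.9 and 59.5 CPM to 89, 91.9 and 102 CPM, or 0.85 ± 0.12, edgeR adjusted p = 2.9e-06. Wdr35 (IFT121) had means of 51.6 ± 8.27 CPM at D0 and 54.4 ± 5.95 CPM at D18 (SD, n = 3), and rose by 0.37 ± 0.13, edgeR adjusted p = 0.022 for D32 against D18. Its 33-base exon moved far more. The exon's share was 2.87, 5.87 and 13.2% at D10, 44.7, 36 and 30.9% at D18, 56, 77.3 and 68.7% at D25 and 69, 89 and 81.1% at D32, with no overlap between D10 and D18.

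Among the motors, 4 of 6 genes were higher at D7 than at D0 and 1 lower, against 28.8% and 29.6% of all genes tested. Dync2h1, the heavy chain of dynein-2, read 26.7, 28.7 and 20.8 CPM at D0 and 102, 96.7 and 105 CPM at D7, a 3.99-fold difference (log2 2.00 ± 0.13, edgeR adjusted p = 3.1e-12) and the largest rise of the 53 genes in that step. Over the days compared from D7 on, its means lay between 88.1 CPM at D18 and 101 CPM at D7. Its highest mean in CPM, 128.8 CPM, was at D12, a day not among these. Kif3a, the common motor subunit of kinesin-2, read 27.9, 29.6 and 29 CPM at D0, 73.7, 71.3 and 79.6 CPM at D7 and 134, 118 and 112 CPM at D18, with log2 differences of 1.38 ± 0.14, edgeR adjusted p = 6.6e-09 and 0.70 ± 0.14, edgeR adjusted p = 0.00015. Kif3c, abundant in neurons, went from 43.3, 37.3 and 29.4 CPM to 137, 145 and 155 CPM, a 3.97-fold difference (log2 1.99 ± 0.14, edgeR adjusted p = 2.6e-11) for D18 against D7. For D32 against D18 it had a log2 difference of 0.08 ± 0.14, edgeR adjusted p = 0.68. Kif3c was also higher at D7 than at D0, by 0.43 ± 0.14, edgeR adjusted p = 0.011. Kif3b, the ciliary partner, had a log2 difference of 0.07 ± 0.13, edgeR adjusted p = 0.71 for D18 against D7 and rose by 0.99 ± 0.13, edgeR adjusted p = 8.7e-07 for D32 against D18, from 64.1, 59.6 and 57.1 CPM to 109, 127 and 123 CPM.

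Kif17, a homodimeric kinesin-2, had the lowest average of the 53 genes per length over the 10 days and stood at 0.642 ± 0.0971 TPM at D7 (SD, n = 3). Its libraries read 8.18, 7.72 and 9.71 CPM at D0, 0.828, 0.97 and 1.14 CPM at D7, 2.84, 1.82 and 3.7 CPM at D18, 2.48, 2.53 and 2.61 CPM at D25 and 4.48, 5.22 and 4.93 CPM at D32, highest in the iPSCs and next at D32. It fell by 3.12 ± 0.33 (log2) for D7 against D0 (edgeR adjusted p = 1.3e-08), 8.68-fold. It rose by 1.51 ± 0.33, edgeR adjusted p = 0.00042 for D18 against D7, and within set 1 that difference was 0.86 with an adjusted p of 0.091. For D32 against D25 the log2 difference was 0.94 ± 0.30, edgeR adjusted p = 0.025, with an adjusted p of 0.061 to 0.068 after leaving out any 1 library of those days except D32 replicate 1.

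In the MKS module, 6 of 13 genes were higher at D32 than at D18 and 0 lower, against 20.6% and 23.7% of all genes tested. Cep290, a Y-link protein whose loss causes early retinal blindness, read 19.8, 18 and 16.3 CPM at D7, 31.8, 38.2 and 30.8 CPM at D18, 112, 111 and 90.6 CPM at D25 and 186, 159 and 260.3 CPM at D32. D32 replicate 3 was the highest library, and these 4 days did not overlap. The difference for D32 against D18 was 5.99-fold (log2 2.58 ± 0.27, edgeR adjusted p = 1.6e-08). That for D32 against D25 was 0.95 ± 0.25, edgeR adjusted p = 0.0077, and without D32 replicate 3 it was 0.72 with an adjusted p of 0.07. A gene on the other strand overlaps Cep290 (chr10:100488289-100573655), and the use of strand in quantification is not given in the sources used here. Cc2d2a, which encodes a protein of the gate with a membrane-binding domain, read 31.9, 36.3 and 36.7 CPM at D18, 59, 46.9 and 52.4 CPM at D25 and 106, 106 and 136 CPM at D32, with log2 differences of 1.73 ± 0.14, edgeR adjusted p = 3e-10 for D32 against D18 and 1.14 ± 0.14, edgeR adjusted p = 1.2e-06 for D32 against D25. Tmem237 had almost all of its difference in the last step, with 35.6, 41.7 and 40.9 CPM at D18, 46.8, 47.2 and 43.8 CPM at D25 and 102, 114 and 121 CPM at D32. It rose 2.45-fold for D32 against D25 (log2 1.29 ± 0.12, edgeR adjusted p = 1.9e-08), the largest difference of the 53 genes in that step.

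The 2 short Cc2d2a exons printed above belong to the same transcript, Cc2d2a-001, so they have a single share. It read 29.7, 27.2 and 34.2% at D10, 32.5, 35.8 and 33% at D18, 47.5, 55.8 and 50.3% at D25 and 56.4, 57.7 and 61.2% at D32, with no overlap between D18 and D25.

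Other MKS genes moved earlier. Tmem107 read 8.84, 8.91 and 10.06 CPM at D0, 6.88, 4.58 and 5.58 CPM at D7 and 20.9, 18 and 23.8 CPM at D18. It fell by 0.70 ± 0.19 (log2, edgeR adjusted p = 0.0027) in the first step and rose 3.67-fold (log2 1.87 ± 0.19, edgeR adjusted p = 1.4e-08) in the second. Mks1 and Tmem231 also fell in the first step, by 1.17 ± 0.15 (edgeR adjusted p = 2.2e-07) and 1.40 ± 0.16 (edgeR adjusted p = 3.3e-08). Tmem231 read 35.6, 33.6 and 28.4 CPM at D0 and 11.2, 12.9 and 13 CPM at D7. B9d2, which forms the B9 complex with B9D1 and MKS1, went the other way with 4.75, 4.09 and 5.78 CPM at D0 and 13.6, 13.7 and 13.2 CPM at D7, by 1.47 ± 0.23, edgeR adjusted p = 4.8e-06. Tmem216 was the 1 gene of the 53 lower at D18 than at D7, where its libraries read 15.25, 17.6 and 17.4 CPM and 20.8, 24 and 22.4 CPM, a fall of 0.42 ± 0.14 (log2, edgeR adjusted p = 0.014). That call was lost without D18 replicate 1 (adjusted p of 0.073), without D7 replicate 2 (0.066), within set 1 (0.18) and under scaling by totals alone (0.14).

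From D18 to D32 the 4 genes of the NPHP module held 1 higher gene, Nphp4, with libraries at 13.5, 22.8 and 29.2 CPM and 31.5, 48.5 and 32.6 CPM (log2 0.78 ± 0.28, edgeR adjusted p = 0.027), and 1 lower gene. Of all genes tested, 20.6% were higher and 23.7% lower. Rpgrip1l did not pass the test in any step after D7.

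Rpgrip1 encodes the scaffold that holds RPGR at the connecting cilium and is known mainly from photoreceptors. The gene (ENSMUSG00000057132, chr14:52110704-52163546, GRCm38) had the widest range of the 53. Its libraries read 11.7, 10.11 and 9.42 CPM at D0, 1.55, 2.42 and 2.39 CPM at D7, 1.99, 2.62 and 2.92 CPM at D10, 10.8, 12 and 3.49 CPM at D12, 24.9, 41.8 and 28.9 CPM at D15 and 104, 138.2 and 88.8 CPM at D18. They went on to 245, 439.6 and 210 CPM at D22, 762, 775 and 509.6 CPM at D25 and 792, 793 and 1126 CPM at D32. At D4, not among the days compared, they read 2.66, 1.87 and 2.84 CPM. Levels were thus lowest from D4 to D10, and each library from D12 on lay above those of these days. Rpgrip1 fell by 2.29 ± 0.37 (log2) from D0 to D7 (edgeR adjusted p = 8.3e-06). It then rose 51.9-fold for D18 against D7 (log2 5.70 ± 0.39, edgeR adjusted p = 1.4e-11) and 8.19-fold for D32 against D18 (log2 3.03 ± 0.32, edgeR adjusted p = 2.8e-08), the largest difference of the 53 in each step. Between D25 and D32 the difference was 0.41 ± 0.30, edgeR adjusted p = 0.36. The largest part of its D25 counts, 61.7%, was assigned to the 7878-base transcript Rpgrip1-003, annotated as a retained intron, and a gene on the other strand (Supt16) overlaps its end, so the level of the protein-coding form is uncertain.

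Rpgr itself changed less in level, from 20.2, 23.8 and 25.29 CPM at D7 to 32.31, 39.7 and 34.4 CPM at D18 and 48.2, 44.1 and 60 CPM at D32, with log2 differences of 0.62 ± 0.19, edgeR adjusted p = 0.0086 and 0.52 ± 0.19, edgeR adjusted p = 0.026. Its transcripts changed more. Rpgr-001 and Rpgr-002 contain a coding exon of 879 bases (chrX:10176003-10176881, minus strand) that Rpgr-003 skips. Rpgr-002 made up 10.45, 23.3 and 19.5% of Rpgr transcripts in the D10 libraries and 23.1, 22.6 and 21.5% at D25, so the exon was already present at D10. Rpgr-001 made up 0, 0 and 0% of Rpgr transcripts in the D10 libraries, 0, 0.997 and 0% at D18, 11.7, 40.1 and 10.9% at D22, 40.4, 44.6 and 19.4% at D25 and 34.2, 29.5 and 47.7% at D32. Rpgr-003 was at 55.3, 30.6 and 49.9% at D10 and 0, 0 and 0% at D32. Between these days it was uneven among libraries, with 0, 0 and 35.8% at D22 and 0, 0 and 25.85% at D25.

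Transcript usage was tested between D10 and D25, which hold 1 library of set 1 and 2 of set 2 each. Of 179 tested transcripts from 41 of the 53 genes, 8 transcripts of 7 genes changed relative to the other transcripts of their gene (edgeR diffSpliceDGE, adjusted p under 0.05), against 2.7% of all 37720 transcripts tested. On data simulated for this comparison the test called more transcripts of unchanged genes than its threshold implies, so its adjusted p-values are likely too small. The 5 with the smallest adjusted p were Ttc8-002 (adjusted p = 3.6e-08), Arl6-003 (9.3e-05), Rpgr-001 (0.00015), Wdr35-001 (0.00036) and Rpgrip1-005 (5e-04). The first 4 rose in usage and Rpgrip1-005 fell. Ttc8-002 was listed at 0 in all D10 libraries and at 63.4, 34.7 and 33% of Ttc8 transcripts at D25. Arl6-003, which holds the 13-base exon, went from 14.7, 20.6 and 19.8% to 63.1, 61 and 56.7%, while Arl6-001, which lacks it, went from 41.1, 50.2 and 44.3% to 17.6, 14.4 and 18%. Wdr35-001 went from 2.62, 5.19 and 11% to 51.3, 72.5 and 59.1%. The remaining calls were Bbs9-004 and Ift80-201, both higher, and Arl6-001, lower. Ift80-201 had no lasting rise. Its shares were 0, 9.86 and 9.27% at D7, 0, 0 and 0.9% at D10, 1.67, 5.76 and 16.4% at D25 and 0.137, 0 and 0.18% at D32. With limma's diffSplice, added after the data had been seen, 19 member transcripts of the 179 were called. The share of all transcripts that diffSplice calls was not computed, so the 19 cannot be set against the 2.7% above. Of the 8, that test kept Arl6-003, Wdr35-001, Rpgrip1-005, Bbs9-004 and Arl6-001, while Ttc8-002 (0.053), Rpgr-001 (0.11) and Ift80-201 (0.43) did not pass. With the replicate number as a block 6 were called, and Bbs9-004 (0.055) and Arl6-001 (0.07) were lost.

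Other genes of the pathway, listed by hand, were counted for D32 against D18, the step in which 20.6% of all genes tested were higher and 23.7% lower. Of 14 further IFT and dynein-2 genes in the table, 5 were higher and 0 lower. Wdr60, a dynein-2 chain, had the largest difference, from 24.7 to 75.5 CPM. Of 14 genes for cargo sorting, 7 were higher and 4 lower. The higher ones included Tulp1 (103 to 639 CPM) and Tub (73.5 to 350 CPM), phosphoinositide-binding adaptors, and Unc119 (197 to 695 CPM), which carries lipidated transducin. Of 20 basal body and further transition zone genes, 6 were higher and 4 lower, with a median log2 difference of 0.06. Among them Cep83, a distal appendage protein, went from 41.2 to 14.5 CPM, and Ahi1, a transition zone protein of Joubert syndrome, from 81 to 143 CPM. Of 9 axoneme genes, 6 were higher and 2 lower, with a median log2 difference of 2.22. Of 7 RFX and FOXJ1 factors, some of which activate ciliary genes, 1 was higher (Rfx1, 18.06 to 36.2 CPM) and 1 lower (Rfx7, 139 to 93 CPM).

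Promoters of 46 of the 53 genes, 250 bases before to 50 bases after the start site, were matched in RefSeq (GRCm38.p6) and searched for the RFX X-box and for the hexamer TAATCC, bound by the photoreceptor factor CRX, on both strands. The X-box was present in 7 of 46 genes (15.22%), against 1.75% of 27025 genes with a promoter of the same length. The hexamer was present in 2 of 46 (4.35%), against 8.14%. A gene counted if any such promoter held a match, and the 27025 were not limited to protein-coding genes. The 7 were B9d2, Bbs1, Ift57, Kif17, Tctn1, Tctn3 and Tmem237, and the 2 were Bbs1 and Rpgrip1. In Bbs1, the only promoter with both, they did not overlap. The matches are descriptions and not shown to be bound. Stretches from promoters of genes that changed late or early are shown on the strand of the gene, with the match in capitals.
Rpgrip1, hexamer on the opposite strand, chr14:52110855-52110900, plus strand: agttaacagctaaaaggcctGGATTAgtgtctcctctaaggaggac
Bbs1, hexamer, chr19:4906799-4906844, minus strand: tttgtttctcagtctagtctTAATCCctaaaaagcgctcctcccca
Kif17, X-box, chr4:138262158-138262210, plus strand: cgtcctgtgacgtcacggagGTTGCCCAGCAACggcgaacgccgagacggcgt
Tmem237, X-box on the opposite strand, chr1:59120097-59120143, minus strand: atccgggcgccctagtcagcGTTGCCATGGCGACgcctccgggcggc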

How the data were processed

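Per the labels' protocols, RNA of iPSCs, D4 aggregates and dissected neural retina was made into directional poly(A) libraries, 3 biological replicates a day. Per the submitters' processing notes, the authors trimmed reads with Trimmomatic 0.36 and quantified them with kallisto 0.42.4 on GRCm38.p4. The estimated counts per gene and per transcript were used as the authors deposited them and rounded to whole numbers. The step from transcripts to genes and the use of strand are not given in the sources used here. kallisto shares ambiguous reads between transcripts, so shares of similar transcripts carry more error than gene levels. In each of the 2 tables used, 3 columns matched no sample and were not used.

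Genes kept by filterByExpr (minimum count 10, total 15) were fitted over all 30 libraries with edgeR 4.0.16 in R 4.3.3 (TMM, quasi-likelihood, day as factor) and p-values were adjusted over 19897 genes by Benjamini-Hochberg. Log2 differences carry SEs from the fit, and 3 libraries a day limit precision. Transcript usage was tested with diffSpliceDGE on the D10 and D25 libraries. Scripts were tested on simulated data. Alternatives were RLE factors, no scaling, other filters, DESeq2 1.42.0, limma 3.58.1, the library set, the replicate number as a block and leaving out libraries. Same-numbered libraries deviated together for D25 against D18 (correlations of 0.27, 0.34 and 0.25), from the data and not from a stated pairing, and not for the other steps. On D18 and D25, as on D10, replicate 2 was the library of set 1 and the rest were of set 2. A shared replicate number and a shared set therefore cannot be told apart there, nor in the block for transcript usage. The 53 genes and the lists were chosen with earlier results of these data known. By rule, the text names in each step up to 6 called genes with the largest rise and 6 with the largest fall, in each role the gene with the highest level and the called gene with the largest fold, genes going against their role, and the 5 transcripts with the smallest adjusted p. Of the 53 genes, 6 overlap another gene on the same strand and 19 one on the other strand, so their counts may be shared. Values of 2 of the 53 genes are not reported here by name, and the counts include them.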

Additional observations from a re-analysis of the deposited data

How the results depend on the processing

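Over 51 results for single genes and transcripts, 776 alternative values were computed: 724 kept their direction and their side of the threshold, 52 kept the direction and lost the call, and 0 reversed. The lost calls belonged to 14 results, among them Kif17 and Ift52 for D32 against D25, Tmem216 for D18 against D7 and the transcripts Arl6-001, Bbs9-004 and Ift80-201. Leaving out 1 library at a time gave 52 to 53 changed members over all days (53 with all libraries), 28 to 30 for D7 against D0 (31), 25 to 31 for D18 against D7 (33), 26 to 33 for D32 against D18 (34), 17 to 21 for D25 against D18 (21), 8 to 13 for D32 against D25 (15) and 6 to 9 transcripts (8). The 8 came without D25 replicate 3 and without D32 replicate 3. Within set 1 the count for D18 against D7 was 16, with 1 library at D18 that is assumed to vary like the other days. Within set 2 the count for D32 against D25 was 8. Set 2 holds no library of D0 or D7, so its F test covered fewer days than the main one. Over the days in set 2, 45 members were called, a count that cannot be set against the 53 over all days. With limma's diffSplice 19 transcripts were called, with no share over all transcripts computed beside them. The fits by set and with diffSplice were chosen after seeing the data. With the replicate number as a block, 29 members were called for D7 against D0 and the other gene counts equalled those without it, and 6 transcripts were called. Library totals are similar, so depth limits mainly Kif17 and early Rpgrip1, which were near 1 to 2 CPM at D7. Other counts of changed members stayed within 1.5 times those reported.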

Other observations

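The days between the compared steps held further patterns, given as levels with no test. The whole aggregates of D4 had the highest mean of the course for 5 of the 53 genes (9.43%) by CPM with TMM factors, against 15.51% of all tested genes. With libraries scaled by totals alone they had it for 1 (Ift27, 1.89%), against 5.64%, and by TPM for 0, against 2.62%. These D4 levels thus depend on the scale, and the share of the 53 was below that of all genes on each scale. Ift57, an IFT-B subunit, read 34.1, 31.6 and 27.7 CPM at D4 against 13.8, 14.1 and 14.5 CPM at D7 with TMM factors, and 25.6 ± 8.99 TPM against 18.6 ± 0.147 TPM (SD, n = 3). B9d1 read 37.3, 46.3 and 23.1 CPM at D4 against 20.3, 19.2 and 21.1 CPM at D7, but 50.2 ± 10.29 TPM against 49 ± 3.29 TPM. Arl6 was uneven at D4, with 45, 61.9 and 19.6 CPM in the 3 libraries. Replicate 2 of that day had the lowest scaling factor of all libraries, 0.524. It was treated as a library with ribosomal RNA-like counts, and the gene fit was also run without it. Ift172 stood at 88.1, 92.8 and 115 CPM at D10, above 46.3, 40.6 and 38 CPM at D7 and 70.2, 59.4 and 47.8 CPM at D12, and Ift74 at 65.2, 93.3 and 71.5 CPM at D12, above 45.1, 47.4 and 48.6 CPM at D18.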
